A study of Mus musculus with 22 samples.

Results

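The genes described here are 10 genes through which a cell shows peptides on major histocompatibility complex (MHC) class I: the heavy chains H2-D1, H2-K1, H2-Q7, H2-T22 and H2-T23, the light chain B2m, the peptide transporter subunits Tap1 and Tap2, the loading factor Tapbp and the transactivator Nlrc5. They were taken by name, and the 59 transcripts that GENCODE assigns to them were summed per gene, giving 10 of the 17023 genes in the table. RNA sequencing had been run on 22 samples of TCL1-355 TKO cells, a mouse B-cell leukemia line as labelled, in which Nfkbie, the gene of the NF-κB inhibitor IκBε, was either edited with Cas9 ribonucleoprotein (NFKBIE-ko) or left intact in mock-treated cells (NFKBIE-wt). Cells of each genotype were expanded for 21 days in a C57BL/6 mouse, passed by intraperitoneal injection to C57BL/6 recipients and collected 10 days later from the spleen or the peritoneal cavity (PC), with 4 samples per genotype and site. The 3 samples per genotype called in vitro came from leukemic spleens and were grown in culture for 2 weeks. All 6 groups therefore carried the TCL1-355 TKO background, and C57BL/6 is an immunocompetent strain. Each genotype of the transplanted cells passed through its own donor mouse, so genotype and donor cannot be told apart in the spleen and PC. Spleen and PC cells were recovered from the same groups of recipients, aged 2 to 3 months, and the labels do not tie a spleen and a PC sample to 1 mouse. The cells were not purified before RNA isolation, and no clone was named for either genotype.

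The total count per sample lay between 24036763 and 26581304. B-lineage markers (Cd79a, Cd79b, Ms4a1, Pax5, Ighm and Cd5) summed to between 6274 and 11588 CPM (counts scaled to library size) in every sample. Nfkbie itself was lower in NFKBIE-ko in the PC (53.5 ± 8.34 against 78.6 ± 9.89 CPM, SD, n = 4; edgeR's quasi-likelihood test, adjusted p = 0.00408). In the cultures it read 55.6, 59.5 and 47.8 CPM in NFKBIE-ko against 116, 139.7 and 54.0 CPM in NFKBIE-wt replicates 1 to 3, a log2 difference of -0.92 ± 0.33 (adjusted p = 0.531). Without NFKBIE-wt in vitro replicate 3 these groups did not overlap, and the difference was -1.23 ± 0.13 (adjusted p = 0.0952). In the spleen the NFKBIE-ko mean of 98.2 ± 29.98 CPM stood beside 85.5 ± 25.1 CPM for NFKBIE-wt (adjusted p = 0.719). Without NFKBIE-wt spleen replicate 4, which read 122.9 CPM, the NFKBIE-wt mean was 73.0 CPM (70.5 to 76.3). The NFKBIE-ko spleens, from 53.9 to 119.6 CPM, lay on both sides of that range, with their mean above it. A Cas9 cut need not lower the transcript of the cut gene, so these levels alone do not settle whether a label is right. Markers of other cells set a pair of libraries apart from their labels. The library labelled NFKBIE-wt spleen replicate 4 held 5.53 CPM of 6 summed erythroid markers and 0.0384 CPM of 6 neutrophil markers, where the other NFKBIE-wt spleen samples held at least 247 and 59.9 CPM. Conversely, in the cultures, NFKBIE-wt replicate 3 as labelled held 1269 CPM of erythroid and 199 CPM of neutrophil markers, where the other NFKBIE-wt cultures held at most 19.1 and 2.28 CPM. Both libraries were kept under their labels, and the tests and the counts over groups that use them are given with and without them. For Nfkbie in the spleen only the levels are given without.

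In class I presentation, the proteasome cuts cytosolic proteins into peptides, the TAP1-TAP2 transporter moves the peptides into the endoplasmic reticulum, and tapasin, the product of Tapbp, holds an empty heavy chain with β2-microglobulin, the product of B2m, next to the transporter until a peptide is bound. H2-D1 and H2-K1 are the classical heavy chains of this strain, recognised by CD8 T cells, while H2-Q7, H2-T22 and H2-T23 are non-classical ones: H2-T23 encodes Qa-1, a ligand of the NKG2A receptor of NK and T cells, and H2-T22 is bound by some γδ T cells. NLRC5 has no DNA-binding domain of its own and raises transcription of class I genes together with factors bound to the X and Y boxes of their promoters. The same promoters carry an NF-κB site in enhancer A and a response element for interferon regulatory factors, and interferons raise most of these genes in most cell types.

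In GRCm39, 8 of the 10 genes lie on chromosome 17, within the mouse MHC region, in the order Tapbp (chr17:34134873-34148267), H2-K1 (chr17:34214987-34219321), Tap1 (chr17:34405996-34416199), Tap2 (chr17:34422501-34435829), H2-D1 (chr17:35481691-35486475), H2-Q7 (chr17:35658131-35662749), H2-T23 (chr17:36340229-36345571) and H2-T22 (chr17:36348020-36353650). B2m lies at chr2:121977957-121983594 and Nlrc5 at chr8:95160984-95253900. The promoter windows below are shown because they hold the elements through which NF-κB, interferon and NLRC5 are known to act on these genes. They come from the RefSeq promoter table (built on GRCm38.p6) and were matched letter for letter to GRCm39, whose coordinates are given. The letters searched on both strands were GGGNNNNNCC for the NF-κB site, TTTCNNTTTC for the interferon-stimulated response element (ISRE), TGACG for the core of the X2 box and ATTGG for the Y box, and matches are in capitals. In H2-K1, H2-T22 and B2m, matches to the NF-κB letters overlap each other and are printed as 1 longer run.
H2-K1, chr17:34219322-34219571, minus strand: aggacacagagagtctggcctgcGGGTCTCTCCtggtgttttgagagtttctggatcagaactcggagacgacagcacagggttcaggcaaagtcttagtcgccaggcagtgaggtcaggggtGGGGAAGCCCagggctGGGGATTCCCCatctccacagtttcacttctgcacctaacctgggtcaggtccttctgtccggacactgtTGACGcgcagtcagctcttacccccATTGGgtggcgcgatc
H2-Q7, chr17:35657881-35658130, plus strand: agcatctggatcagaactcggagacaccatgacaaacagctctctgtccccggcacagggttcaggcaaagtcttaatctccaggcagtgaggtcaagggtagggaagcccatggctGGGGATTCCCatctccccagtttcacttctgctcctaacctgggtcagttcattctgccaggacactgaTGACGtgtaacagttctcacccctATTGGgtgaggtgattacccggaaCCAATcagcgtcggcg
H2-T22, chr17:36353651-36353884, minus strand: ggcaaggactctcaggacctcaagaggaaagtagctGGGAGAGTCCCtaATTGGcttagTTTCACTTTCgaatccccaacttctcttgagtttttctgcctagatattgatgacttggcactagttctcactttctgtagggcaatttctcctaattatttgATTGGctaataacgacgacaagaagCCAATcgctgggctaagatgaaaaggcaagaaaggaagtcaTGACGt
For H2-T23 and B2m only 30 bases around the ISRE letters are shown, since the annotated transcript starts lie upstream of them.
H2-T23, chr17:36343694-36343723, minus strand: tactgcTTTCTCTTTCataaagacacaaat
B2m, chr2:121978023-121978052, plus strand: gaacatGAAACTGAAAatGGGAAAGTCCCt
The H2-Q7 window occurs at 2 places in the genome, of which the one at the gene's start is given.

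Of the 10 genes, 8 had a window in the table and Tap2 and Nlrc5 had none. In the 250 bases before the RefSeq start, NF-κB letters were present in 6 of the 8 (H2-D1, H2-K1, H2-Q7, H2-T22, B2m and Tap1), against 45.8% of 32851 windows of all genes. TGACG was found in the same 6 genes, against 17.8% of all windows. ATTGG was found in 8 of 8, against 33.8%. The ISRE letters were the rarest, present in 2.98% of all windows and in H2-T22, H2-T23 and B2m. H2-D1 and H2-K1 share both GGGGAAGCCC and GGGGATTCCC, and H2-Q7 holds GGGGATTCCC alone. A match of letters describes the window and is not a measured binding site.

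Levels between genes were compared per length, as counts per kilobase of transcript scaled to the same sum in each sample (TPM). B2m was the highest of the 10, with a mean over the 22 samples of 4018 TPM, rank 27 of 17023 genes. H2-K1 (2686, rank 70) and H2-D1 (1416, rank 120) followed, and H2-Q7 stood at 416. H2-T23, H2-T22, Tap1, Tap2 and Tapbp lay between 102 and 137, and Nlrc5 was the lowest at 48.4, rank 3117. The 10 genes took between 0.505% and 1.03% of all counts in a sample. All 10 passed the filter on low counts in every comparison, so every count below is over 10 genes.

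Across the 6 groups the genes were high in the PC and low in the NFKBIE-wt spleen. Mean CPM was lowest in the NFKBIE-wt spleen for 9 of 10 genes, and for Tap2 in the NFKBIE-ko cultures. It was highest in the NFKBIE-ko PC for 6 genes (H2-D1, H2-K1, H2-T22, H2-T23, B2m and Tapbp), in the NFKBIE-wt PC for Tap1, Tap2 and Nlrc5, and in the NFKBIE-ko spleen for H2-Q7. These counts were identical without the 2 doubted libraries. Every sample of either PC group was above every NFKBIE-wt spleen sample for 10 of 10 genes, against 15.5% of all genes for the NFKBIE-wt PC and 21.5% for the NFKBIE-ko PC (10 of 10 against 20% and 25.8% without the 2 libraries).

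**Figure D1:**
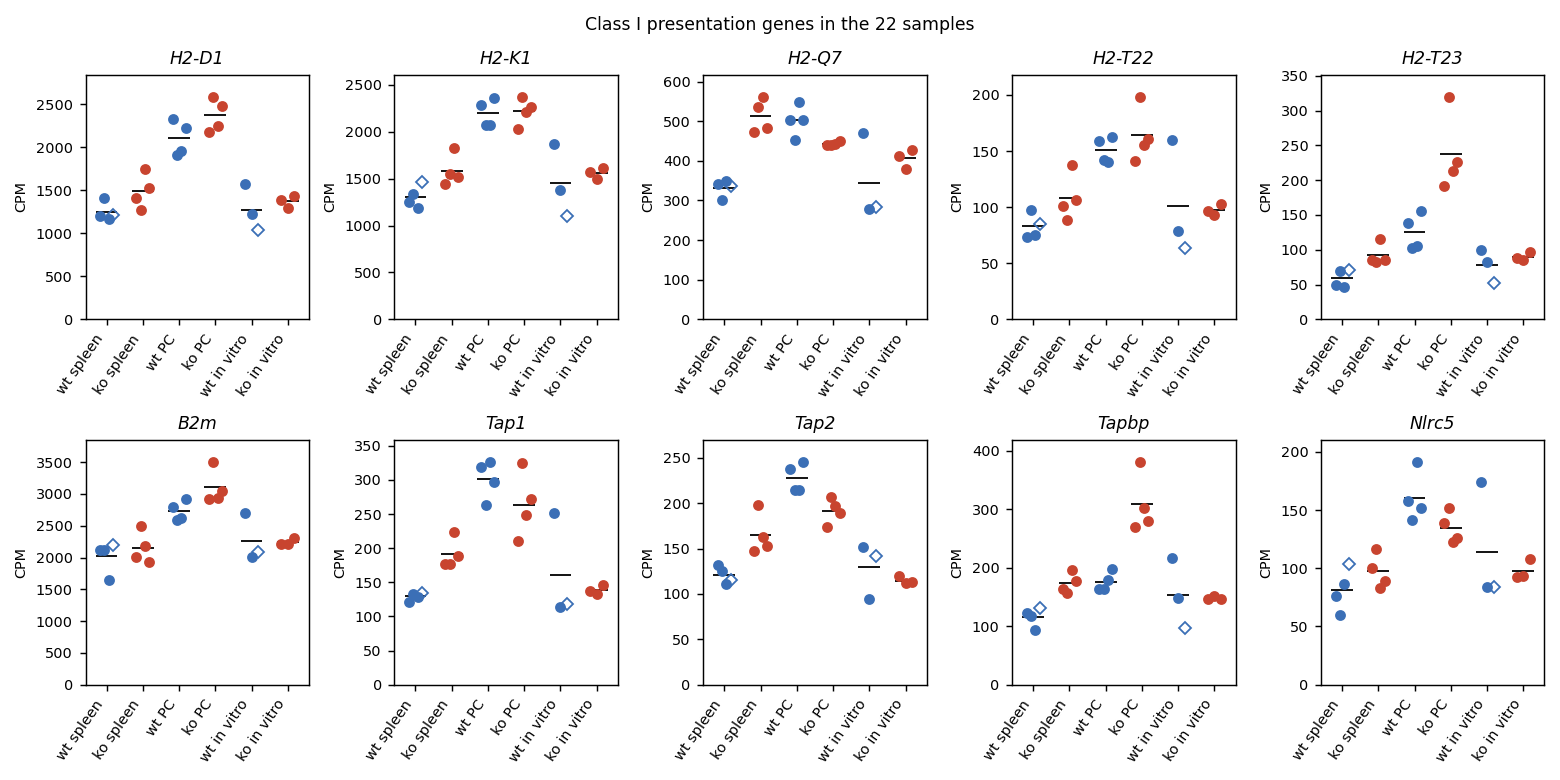
Level of each gene in CPM (vertical axis, from 0) in the 6 groups (horizontal axis). Blue points are NFKBIE-wt and red points NFKBIE-ko samples, the line is the group mean, and open diamonds are the libraries labelled NFKBIE-wt spleen replicate 4 and NFKBIE-wt in vitro replicate 3. Both PC groups lie above the NFKBIE-wt spleen in all 10 panels. In the PC, NFKBIE-ko lies wholly above NFKBIE-wt for H2-T23, B2m and Tapbp and wholly below it for H2-Q7 and Tap2.

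Neighbours in this order often overlapped. For H2-D1, the NFKBIE-wt spleen (1246 ± 109 CPM, SD, n = 4), the NFKBIE-wt cultures (1274 ± 270, n = 3), the NFKBIE-ko cultures (1371 ± 68.0, n = 3) and the NFKBIE-ko spleen (1488 ± 201, n = 4) each overlapped the next, and both PC groups stood clear above them. For B2m, the same 4 groups had means between 2024 and 2264 CPM, and the NFKBIE-wt PC (2732 ± 154) and NFKBIE-ko PC (3105 ± 271) were higher. The SD relative to the mean was smallest in the NFKBIE-ko cultures for 8 of 10 genes (all but H2-Q7 and Tap1) and largest in the NFKBIE-wt cultures for 10 of 10. Without the 2 libraries these counts were 8 and 9, with H2-T23 most variable in the NFKBIE-ko PC, though only 2 NFKBIE-wt cultures were then left. The SD of Tapbp was 2.81 CPM around 148.6, against 60.0 CPM around 153.3 in the NFKBIE-wt cultures. NFKBIE-wt in vitro replicate 1 was the highest of its group for 10 of 10 genes, and NFKBIE-ko PC replicate 2 for 9 of 10.

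**Figure D2:**
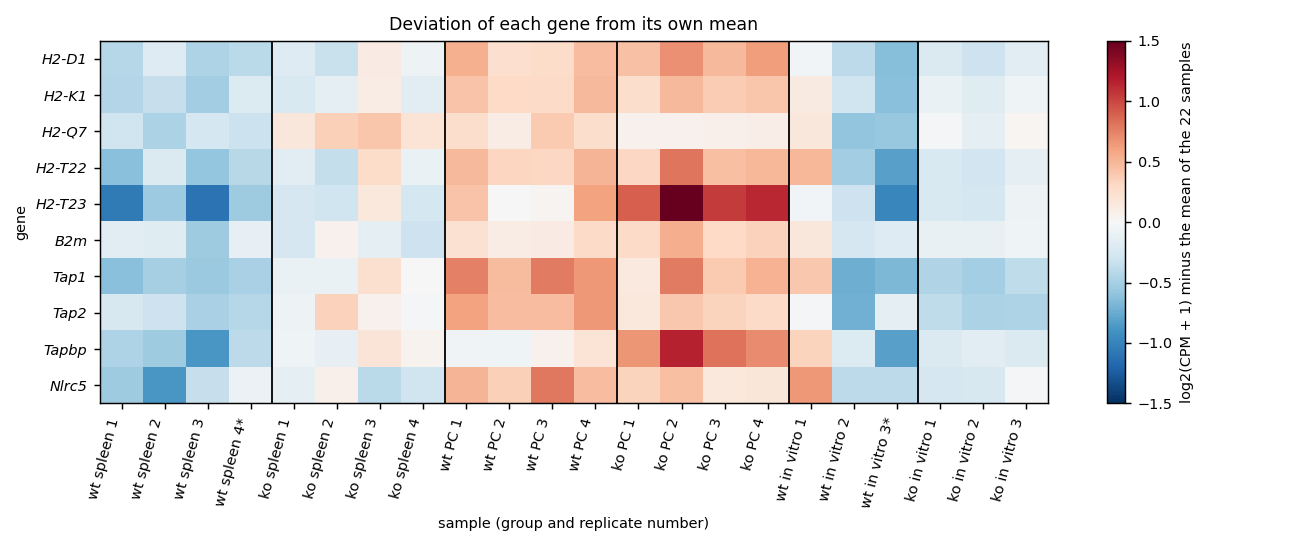
Each cell is log2(CPM + 1) of a gene (rows) in a sample (columns, grouped by vertical lines) minus that gene's mean over the 22 samples, red above and blue below. Asterisks mark the 2 doubted libraries. Columns rather than rows differ in the NFKBIE-wt cultures, where replicate 1 is red or near white for all genes and replicates 2 and 3 are mostly blue.

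The first comparison sets NFKBIE-ko samples against NFKBIE-wt samples within each site. In the spleen all 10 genes had a higher mean in NFKBIE-ko, and 3 passed the test: H2-Q7, Tap1 and Tapbp. Of all 12416 genes tested there, 5.17% were called at an adjusted p below 0.05, and the median log2 fold change was 0.42 over the 10 genes against -0.0035 over all genes. None of the 10 changed by more than 1 on the log2 scale.
H2-Q7 read 340.6, 300.5, 349.2 and 335.7 CPM in NFKBIE-wt spleen replicates 1 to 4 and 472.1, 536.6, 561.6 and 482.1 CPM in NFKBIE-ko. The groups did not overlap, and the log2 fold change was 0.63 ± 0.10 (SE; edgeR's quasi-likelihood test, adjusted p = 0.0138). Tap1, the first transporter subunit, read 121.7, 133.4, 127.9 and 134.5 CPM in NFKBIE-wt and 177.2, 176.3, 223.6 and 187.9 CPM in NFKBIE-ko. All 4 NFKBIE-ko samples were above all NFKBIE-wt samples, with a log2 fold change of 0.56 ± 0.11 (adjusted p = 0.0218). Tapbp read 123.3, 117.8, 93.0 and 130.2 CPM in NFKBIE-wt and 162.8, 157.1, 196.0 and 177.9 CPM in NFKBIE-ko. Here too the groups were apart, with a log2 fold change of 0.58 ± 0.13 (adjusted p = 0.0376).
Samples also did not overlap for H2-T23 (92.3 ± 15.1 against 59.0 ± 12.8 CPM, adjusted p = 0.0768) and Tap2 (165.1 ± 22.7 against 120.9 ± 9.58, adjusted p = 0.0678), which missed the threshold. That made 5 of 10 genes with every NFKBIE-ko sample above every NFKBIE-wt sample, against 7.77% of all genes, and 6 of 10 without NFKBIE-wt spleen replicate 4, with H2-K1 added, against 12.3%. The log2 differences of H2-D1, H2-K1 and H2-T22 were 0.25, 0.27 and 0.39, and those of B2m and Nlrc5 were 0.09 (95% interval -0.22 to 0.40) and 0.25 (-0.15 to 0.66).
Without NFKBIE-wt spleen replicate 4, 4 genes were called, with H2-T23 added (0.73 ± 0.18, adjusted p = 0.0351), against 11.6% of all genes. The spleen calls hung on single libraries: without NFKBIE-ko spleen replicate 3 none of the 10 was called, and without NFKBIE-ko replicate 1 or 4, or NFKBIE-wt replicate 1 or 3, 1 gene was. No member was called with the replicate number as a block, a number that did not pair the samples. Of 15 alternative fits, H2-Q7 kept its spleen call in 12, Tap1 in 9 and Tapbp in 8. H2-Q7 also lost it with the most abundant transcript of each gene in place of the sum.
Marker levels moved with this comparison. The 7 summed cytotoxic and NK markers (Gzma, Gzmb, Gzmk, Prf1, Nkg7, Klrd1 and Ncr1) lay between 37.8 and 104 CPM in the NFKBIE-ko spleen and between 1.19 and 9.22 CPM in the NFKBIE-wt spleen, and the 8 macrophage and monocyte markers between 87.9 and 344 against 24.7 and 78.7 CPM. The summed B-lineage markers lay between 6274 and 7505 against 9129 and 9816 CPM, and 3 of the 6 had a lower mean in NFKBIE-ko and 3 a higher one. Ighm, the immunoglobulin heavy chain, made up most of the sum and stood at 5318 against 7721 CPM, while Ms4a1 stood at 331 against 264, Pax5 at 241 against 226 and Cd5 at 56.2 against 42.9 CPM. The summed T-cell markers (122 to 204 against 40.7 to 159 CPM) overlapped between genotypes, but 8 of 9 had a higher mean in NFKBIE-ko. Cd2 (87.1 against 68.7 CPM) and Trac, the lower one (23.4 against 26.6 CPM), made up most of the sum. Cd3e stood at 4.21 against 1.18 CPM and Cd8a at 6.56 against 0.867 CPM. The dendritic markers (9.28 to 16.3 against 5.11 to 9.38 CPM) overlapped only through NFKBIE-wt spleen replicate 4. Without it NFKBIE-wt lay between 5.11 and 6.99 CPM, below every NFKBIE-ko sample. With all samples, 5 of 5 dendritic markers had a higher mean in NFKBIE-ko. The part of all these markers in the result was not tested, and in bulk samples fewer cells of a type and less RNA per cell cannot be told apart.

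**Figure D3:**
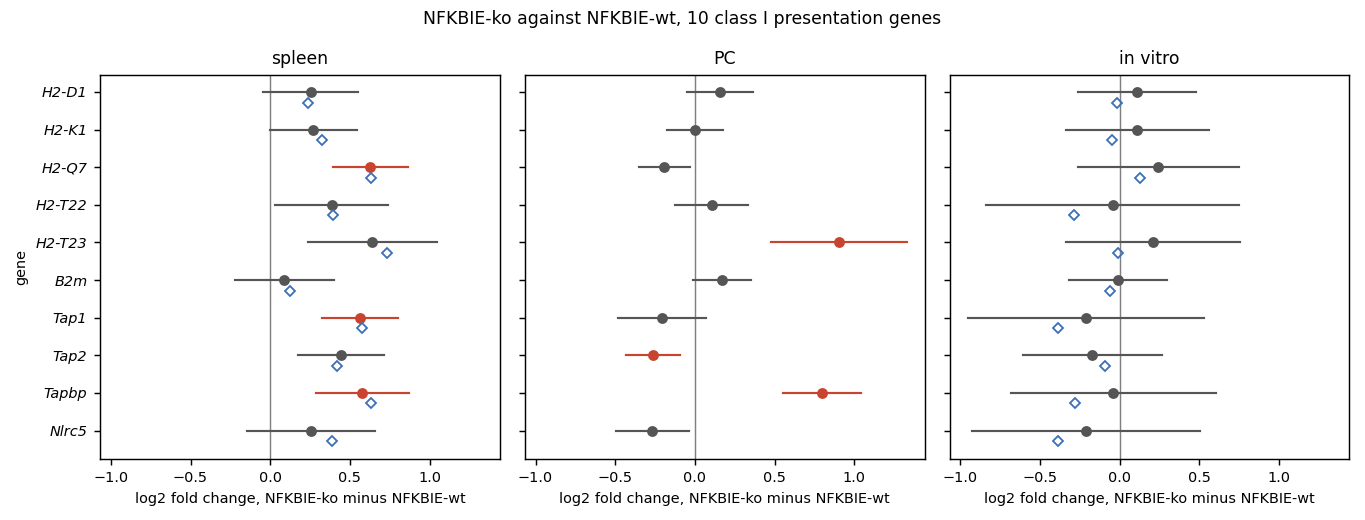
Log2 fold change of NFKBIE-ko against NFKBIE-wt (horizontal axis) for each gene in the spleen, PC and cultures. Circles and bars are the estimate and its 95% interval, red where the adjusted p is below 0.05, and open diamonds are the estimates without the doubted library of that compartment. All 10 spleen estimates are above 0, while the PC estimates run from -0.27 to 0.90.

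In the PC the same genes split. H2-T23 and Tapbp were higher in NFKBIE-ko, Tap2 was lower, and the other 7 did not pass the test. This is 3 of 10 genes where 42.9% of the 12832 genes tested were called. The median log2 fold change was 0.05, and 5 of 10 values were positive.
H2-T23 read 138.8, 102.8, 105.9 and 156.2 CPM in NFKBIE-wt PC replicates 1 to 4 and 191.6, 319.8, 212.9 and 226.8 CPM in NFKBIE-ko. The groups did not overlap (log2 fold change 0.90 ± 0.19, adjusted p = 0.00445). Tapbp read 164.3, 163.6, 178.4 and 196.9 CPM in NFKBIE-wt and 270.3, 380.4, 302.1 and 280.0 CPM in NFKBIE-ko. Tapbp was the most clearly separated of the 10 genes there (0.80 ± 0.11, adjusted p = 0.000262). Both kept their call in 15 of 15 alternative fits.
Tap2, the partner of Tap1, went the other way, from 237.3, 214.7, 214.6 and 245.3 CPM in NFKBIE-wt to 174.2, 206.6, 196.8 and 189.6 CPM in NFKBIE-ko. The log2 fold change was -0.26 ± 0.08 (adjusted p = 0.0183), and it kept its call in 13 of 15 fits, missing it with all 22 samples in the fit and with the replicate block. H2-Q7 read 503.8, 453.6, 548.9 and 504.2 CPM in NFKBIE-wt and 440.0, 439.9, 443.5 and 450.9 CPM in NFKBIE-ko. These groups did not overlap either, but the difference of -0.19 ± 0.07 missed the threshold (adjusted p = 0.0519). Nlrc5 (-0.27, adjusted p = 0.0593) and Tap1 (-0.21, adjusted p = 0.209) also had negative values without a call. Nlrc5 was called together with Tap1 without NFKBIE-ko PC replicate 2, and together with H2-Q7 without NFKBIE-wt PC replicate 2. This made 5 calls each time, where 42.9% of all genes were called with all samples kept.
H2-K1 stood at 2220 ± 145 CPM in NFKBIE-ko and 2201 ± 148 in NFKBIE-wt, with a 95% interval of the log2 difference from -0.18 to 0.18. H2-D1 (0.16), H2-T22 (0.11) and B2m (0.17) had positive values that did not pass. Every NFKBIE-ko sample was above every NFKBIE-wt sample for 3 genes (H2-T23, B2m and Tapbp), against 20.9% of all genes, and below for 2 (H2-Q7 and Tap2), against 18.4%.
Macrophage and monocyte markers (Adgre1, Csf1r, C1qa, C1qb, C1qc, Cd68, Lyz2 and Itgam) summed to between 3739 and 5529 CPM in the NFKBIE-ko PC and between 546 and 1687 CPM in the NFKBIE-wt PC. The cytotoxic and NK markers lay between 36.3 and 61.4 against 9.93 and 27.7 CPM, and the B-lineage markers between 8765 and 9066 against 10678 and 11049.8 CPM. Of these 6 markers 3 had a higher mean in NFKBIE-ko, Cd79a (1056 against 873 CPM), Ms4a1 (1158 against 665) and Cd5 (24.4 against 16.5), and Ighm stood at 5633 against 8171 CPM. Other lists also separated the genotypes in their sums. Neutrophil markers summed to between 29.96 and 46.4 CPM in NFKBIE-ko against 148.5 and 457 in NFKBIE-wt, with 5 of 6 lower in mean and 1 higher. Stromal and endothelial markers summed to between 6.29 and 6.72 against 8.06 and 17.9 CPM, with 4 of 4 lower. Dendritic markers summed to between 7.41 and 11.2 against 4.34 and 6.33 CPM. Only 2 of these 5 had a higher mean in NFKBIE-ko, and 3 had a lower one. T-cell markers overlapped between genotypes in their sum (235.6 to 313.6 against 201.9 to 266.2 CPM), though 8 of 9 had a higher mean in NFKBIE-ko. The part of all these markers in the PC result was not tested.

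In the cultures none of the 10 genes differed between genotypes by edgeR's quasi-likelihood test (smallest adjusted p = 0.641), none did at an unadjusted p below 0.05, and none by DESeq2. Of all 11913 genes tested, 0.0336% were called, and 1110 had an unadjusted p below 0.05. Log2 differences lay between -0.21 and 0.24.
Intervals were wide: for Tap1 the 95% interval of the log2 difference was -0.95 to 0.53 and for H2-Q7 it was -0.26 to 0.75. Tap1 read 250.9, 113.4 and 118.6 CPM in NFKBIE-wt in vitro replicates 1 to 3 and 137.7, 132.3 and 145.5 CPM in NFKBIE-ko. Tapbp read 215.9, 147.7 and 96.4 CPM in NFKBIE-wt and 147.0, 151.8 and 146.9 CPM in NFKBIE-ko. In both genes the NFKBIE-ko cultures lay inside the range of the NFKBIE-wt cultures. Without NFKBIE-wt in vitro replicate 3 no member was called either, against 0.0746% of all genes. No member's groups were then apart, where 12.3% of all genes had every NFKBIE-ko culture above every NFKBIE-wt culture and 13.2% had every one below.
In the NFKBIE-ko cultures the cytotoxic and NK list summed to at most 2.18 CPM, the neutrophil list to at most 0.298 and the macrophage list to at most 42.1 CPM. At 0 counts in all 3 samples were 2 of 7 cytotoxic and NK markers, 4 of 6 neutrophil, 2 of 8 macrophage, 3 of 9 T-cell, 2 of 6 erythroid and 1 of 5 dendritic markers, C1qa, C1qc, Gzma, Klrd1, Cd8a and S100a8 among them. Some listed genes were not low there: Adgre1 stood at 24.3 CPM against 8.63 in the NFKBIE-ko spleen, and Cd3g, at 21.9 CPM, had its highest mean of the 6 groups. The dendritic list (16.3 to 17.9 CPM, with Zbtb46 at 14.8) had its highest median there too. The 10 genes were still measured there at 1371 ± 68.0 (H2-D1), 1564 ± 58.6 (H2-K1) and 2244 ± 49.9 CPM (B2m).

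A call in 1 site and not in another is no difference, so the genotype effects were compared between sites in a fit of all 22 samples. Between the spleen and the PC, 2 of 10 genes were called, against 4.85% of 13801 genes. For H2-Q7 the effect was 0.81 ± 0.18 higher on the log2 scale in the spleen (adjusted p = 0.0143), and for Tap2 it was 0.70 ± 0.17 higher (adjusted p = 0.0243). In both, NFKBIE-ko was above NFKBIE-wt in the spleen and below it in the PC. Tap1 (0.76, adjusted p = 0.106) and Nlrc5 (0.51, adjusted p = 0.334) had the same sign without a call, and H2-T23 and Tapbp, the genes raised in the PC, differed by -0.27 (95% interval -0.88 to 0.33) and -0.23 (-0.74 to 0.28).
Without the 2 doubted libraries H2-Q7 and Tap2 were again the 2 called, at 0.84 and 0.70, against 7.9% of all genes. H2-Q7 kept its call in 22 of 23 alternative fits and Tap2 in 16, and with the most abundant transcript of each gene in place of the sum neither was called. Tap2 missed it without NFKBIE-ko PC replicate 1, 3 or 4, NFKBIE-ko spleen replicate 3, or NFKBIE-wt PC replicate 1 or 4, and its adjusted p over the alternatives ran from 0.00344 to 0.0618. Between the spleen and the cultures no member was called, against 0.391% of all genes. An unadjusted p below 0.05 was found for 3 members and for 2177 of all 13801 genes. Tap2 was called by DESeq2 and without NFKBIE-wt in vitro replicate 2. Between the PC and the cultures none was called either, against 4.76%. Here 3 members and 2723 of all 13801 genes had an unadjusted p below 0.05. Tapbp was called by DESeq2 and with culture replicate 3 of NFKBIE-wt left out, and H2-Q7 with culture replicate 1 left out. Without the 2 libraries, Tapbp was called in both: its effect was 0.93 ± 0.22 higher in the spleen than in the cultures (adjusted p = 0.0466, against 0.884% of all genes) and 1.08 ± 0.21 higher in the PC (adjusted p = 0.00716, against 5.95%).

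The second comparison sets the sites against each other within a genotype. In NFKBIE-wt all 10 genes were higher in the PC than the spleen, against 15.4% of all genes (34.7% called in either direction). The differences ran from 0.43 (B2m, adjusted p = 0.00502) to 1.22 (Tap1, adjusted p = 7.38e-05) on the log2 scale, with a median of 0.81 against -0.034 over all genes, and only Tap1 and H2-T23 (1.09 ± 0.21) were beyond 1. Each of the 10 kept its call in every alternative fit, and all 10 were called without the 2 doubted libraries, against 38% of all genes.
In NFKBIE-ko, 7 of 10 were higher in the PC than in the spleen, against 24.6% of all genes (50.4% called in either direction). H2-T23 rose most, by 1.37 ± 0.21 (adjusted p = 2.38e-05), ahead of Tapbp (0.83, adjusted p = 0.000584) and H2-D1 (0.67, adjusted p = 0.000127). H2-K1, H2-T22, B2m and Tap1 were the others. Tap1 was close to the threshold (0.46, adjusted p = 0.0459) and kept its call in 6 of 14 fits. H2-Q7 (-0.21, adjusted p = 0.173), Tap2 (0.22, adjusted p = 0.144) and Nlrc5 (0.47, adjusted p = 0.0603) did not pass.

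**Figure D4:**
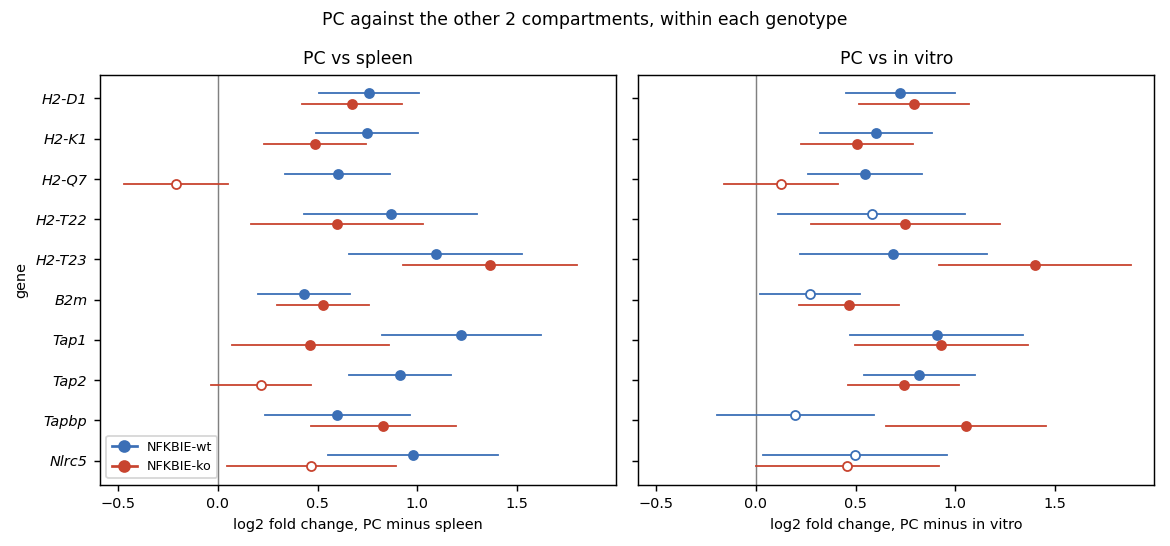
Log2 fold change of the PC against the spleen (left) and against the cultures (right) for each gene, with 95% intervals, NFKBIE-wt in blue and NFKBIE-ko in red. Filled points have an adjusted p below 0.05. In the left panel the genotypes part at H2-Q7, where NFKBIE-wt stands at 0.60 and NFKBIE-ko at -0.21.

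Against the cultures, 6 genes were higher in the NFKBIE-wt PC (H2-D1, H2-K1, H2-Q7, H2-T23, Tap1 and Tap2). Of all genes 14.1% were higher and 33.4% were called in either direction. The count of 6 depended on the cultures: it was 10 without NFKBIE-wt in vitro replicate 1, whose levels were the highest of its group. The share of all genes called without that library is not given here, so the count of 10 shows only this dependence. The count was 5 without the 2 doubted libraries, where 42% of all genes were called in either direction. In NFKBIE-ko, 8 genes were higher in the PC than in culture, all but H2-Q7 and Nlrc5. Of all genes 23.7% were higher there and 47.3% were called in either direction. Tapbp differed by 1.05 ± 0.19 (adjusted p = 0.000199) and H2-T23 by 1.40 ± 0.23 (adjusted p = 7.06e-05). For 10 of 10 genes every sample of either PC group was above every NFKBIE-ko culture, against 33.6% and 32.7% of all genes for NFKBIE-wt and NFKBIE-ko PC. The PC comparisons within a genotype share their PC samples. The macrophage list summed to at most 78.7 CPM in all cultures and NFKBIE-wt spleens, far below its range in either PC group, and its part in these differences was not tested.
Spleen and culture were closer. In NFKBIE-wt no member was called (edgeR's quasi-likelihood test), nor was any of all genes (0%), while 2 members and 1061 of all genes had an unadjusted p below 0.05 and DESeq2 called 30 of all genes. Without the 2 doubted libraries 3 members were lower in the spleen than in culture, where 25.5% of all genes were called in either direction. These members were H2-T23 (-0.69 ± 0.22, adjusted p = 0.0307), Tapbp (-0.67 ± 0.16, adjusted p = 0.00569) and Nlrc5 (-0.77 ± 0.22, adjusted p = 0.0159). In NFKBIE-ko 1 of 10 was called, against 29.9%: Tap2 was 0.53 ± 0.13 higher in the spleen (adjusted p = 0.00684).

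Of a wider list of 46 genes of the class I pathway, 43 were in the table. In the spleen 41 were tested and 4 were higher in NFKBIE-ko, none lower, where 2.22% of all genes were higher and 5.17% called in either direction. The median log2 fold change was 0.31. Irf1, the interferon regulatory factor that binds class I promoters, rose from 73.2 ± 12.3 to 195.0 ± 23.8 CPM (log2 fold change 1.41 ± 0.15, adjusted p = 0.00243). Both subunits of the PA28 proteasome activator rose, Psme1 by 0.78 (adjusted p = 0.0320) and Psme2 by 1.14 (adjusted p = 0.0376). Tapbpl, the tapasin-related peptide editor, was the 1 of 5 trimming and loading genes that rose (0.63, adjusted p = 0.0369). None of the 11 other class I genes, 3 constitutive proteasome subunits or 8 interferon signal genes passed.
Without NFKBIE-wt spleen replicate 4 the count in the spleen was 9 of 41, all higher, where the share of all genes called also rose, to 11.6%, with Psmb9 and Psmb10 of the immunoproteasome, Calr, Irf8 and Ifng added.
In the PC 40 were tested, and 16 were higher and 5 lower in NFKBIE-ko, against 22.2% and 20.7% of all genes. Of 11 other class I genes, 5 rose and 4 fell: Cd1d1, a lipid-presenting molecule, rose by 1.00 (adjusted p = 7.9e-05), while H2-Q6 fell by 0.75 (adjusted p = 1.4e-05) and H2-Q4 fell by 0.80 (adjusted p = 2.5e-05) on the log2 scale. H2-Q4 and H2-Q6 are neighbours of H2-Q7 in the Q cluster. H2-T10, close in sequence to H2-T22, fell by 0.37 (adjusted p = 0.00796). Of 5 immunoproteasome and activator genes 4 rose, and of 7 interferon signal genes 5 rose, led by Ifngr1 (0.51, adjusted p = 0.00102) and Ifngr2 (0.60, adjusted p = 0.00154), the subunits of the interferon-γ receptor. Of the 9 transcription genes Irf8 rose (0.80, adjusted p = 0.000163), and Nfyb, a subunit of the factor that binds the Y box, fell by 0.44 (adjusted p = 0.000276). Tapbpl was again the 1 loading gene that rose (0.65).

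**Figure D5:**
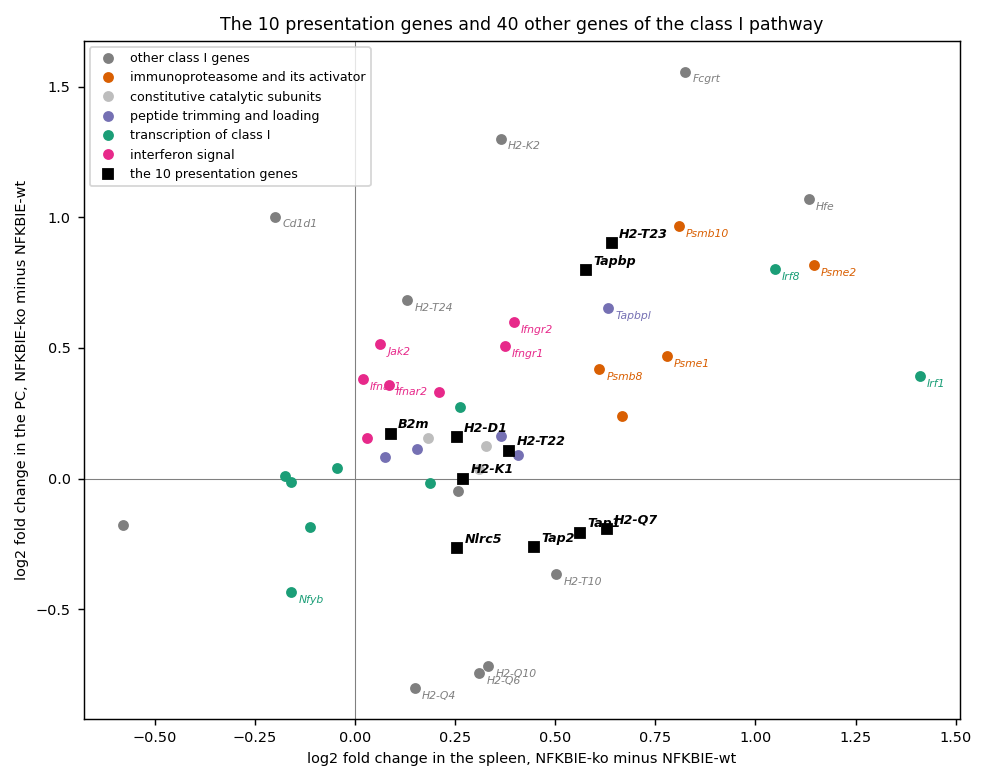
Log2 fold change of NFKBIE-ko against NFKBIE-wt in the spleen (horizontal axis) and in the PC (vertical axis) for the 10 genes (black squares) and 40 other genes of the class I pathway (circles coloured by list). Names are given for the 10 genes and for those with an adjusted p below 0.05 in either site. H2-T23 and Tapbp lie in the upper right with Irf8 and the PA28 subunits, and H2-Q7, Tap1, Tap2 and Nlrc5 lie below 0 on the vertical axis with H2-Q4 and H2-Q6 further down.

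In the cultures 41 were tested and none was called, with or without NFKBIE-wt replicate 3. H2-Q6, H2-Q4 and H2-T10 were the 3 of 42 genes of the list, against 4.85% of all genes, whose genotype effect was called as different between the spleen and the PC, by 1.05 ± 0.19, 0.94 ± 0.19 and 0.86 ± 0.22 on the log2 scale, higher in the spleen like H2-Q7. They were also the 3 called without the 2 doubted libraries, at 0.95, 0.91 and 0.78, against 7.9% of all genes. Between the PC and the cultures 2 of 42 were called, Tapbpl and Ifng, against 4.76%. Without the 2 doubted libraries 5 were (H2-Q6, H2-T24, Psmb10, Tapbpl and Ifng), against 5.95%. Ifng read at most 0.80 CPM in the cultures. Between the spleen and the cultures 0 were called, against 0.391%, and without the 2 doubted libraries Irf1 alone, against 0.884%.

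The 10 genes varied together. Over the 22 samples the 45 pairwise correlations of log2(CPM + 1) ran from 0.48 to 0.96, with a median of 0.79. After each group's mean was taken out they ran from 0.14 to 0.92, with a median of 0.63. Without the 2 doubted libraries the ranges were 0.42 to 0.95 (median 0.80) and -0.051 to 0.91 (median 0.65). All these values include NFKBIE-wt in vitro replicate 1, the highest of its group for 10 of 10 genes. How far they rest on that library was not tested. Spleen and PC samples of a genotype share a donor mouse, and samples of either site hold host cells of that site, so the values are descriptions.
Among 9897 other genes with a mean of at least 5 CPM, those whose profile was most like the mean of the 10 standardised genes over 22 samples were Rtp4 (r = 0.94), Ifi27, Zbp1, H2-M3, Bst2, Parp12, Xaf1, Oasl2, Irf9 and Ms4a6d (r = 0.91). H2-M3 is a non-classical heavy chain, and Rtp4, Bst2, Oasl2 and Irf9 are known for their induction by interferon. Within groups the list was headed by Ifi47 (r = 0.96), Igtp, Tgtp2, Psmb9, Irgm2 and Gbp2, then Gm12250, Serpina3g, Tgtp1 and Tmem140 (r = 0.91). Ifi47, Igtp, Tgtp2 and Irgm2 are GTPases of the interferon-γ response and Psmb9 is an immunoproteasome subunit encoded beside Tap1. Without the 2 doubted libraries Rtp4 and Ifi47 again headed the 2 lists, at 0.94 and 0.96. NFKBIE-wt in vitro replicate 1 was kept in these lists as well.

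The summed counts join transcripts of different kinds. B2m was 1 transcript, and for H2-D1 a coding transcript held 80.4% of the gene's CPM. For H2-Q7 the largest transcript was annotated as a retained intron and held 44.8% of the gene's CPM, and for Tap2 a retained-intron transcript held 69.8%. In the spleen both main coding transcripts of H2-Q7 were higher in NFKBIE-ko, with means of 144.3 against 74.3 CPM and 112.2 against 70.0 CPM, and the retained-intron transcript stood at 206.5 against 159.8 CPM. Without NFKBIE-wt spleen replicate 4 the NFKBIE-wt means were 71.3, 72.6 and 161.6 CPM.
Reads were also divided among near-identical genes. Of the 31-base words in H2-T22's transcripts 51.2% also occur in other genes, 46.6% in H2-T10 alone, and for H2-Q7 the share was 37.7%, most of it with H2-Q10 and H2-Q5. It was 25.4% for H2-D1, 25.2% for H2-T23 and 22% for H2-K1, 6.63% for Tap1, mostly with the overlapping Psmb9, and 0% for B2m and Nlrc5. The values of the heavy chains, above all H2-T22 and H2-Q7, therefore carry the uncertainty of that division. Exons of 9 of the 10 genes, all but B2m, overlap an exon of another gene, and for 8 of these only on the opposite strand.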

How the data were processed

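The authors quantified paired-end mRNA reads (TruSeq) with Salmon 1.8 on GRCm39 and deposited estimated counts per transcript for 22 samples. The deposited expected counts were not whole in 69.5% of values. They were summed per gene with GENCODE (62147 of 62492 transcripts matched, and 0.619% of counts did not), rounded, filtered (filterByExpr) and scaled (TMM factors 0.966 to 1.03). CPM use the scaled library sizes. Genotypes were compared within each compartment, and sites and differences of effects in a fit of all 22 samples, with edgeR 4.0.16 (glmQLFit, glmQLFTest, R 4.3.3) and Benjamini-Hochberg adjustment over all genes tested. A gene was called at an adjusted p below 0.05. The test was checked on simulated counts. DESeq2 1.42.0, RLE scaling, no filter, 1 transcript per gene, coding transcripts, a replicate block and leaving out each library were alternatives. The members and gene lists were chosen with earlier results of these data known, and some items of the lists are not reported here. Named genes were the 10 members, in each genotype comparison up to 4 genes of the pathway list per direction with the smallest adjusted p, a lone called gene of a subgroup, and the 10 genes most like the members. The count of shared 31-base words, and the counts over groups, correlations and pathway differences without the 2 doubted libraries, were added after the data were seen. The words stand in for a comparison of proteins, which was not analysed here. Genes added or singled out beyond that rule were chosen after their values were seen. Recipient mice and cultures are the replicates, and p-values measure the spread between them, not between edited lines. Replicate pairs differed by more than counting noise (chi-square per degree of freedom 7.51 to 212 over 30 pairs).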

Additional observations from a re-analysis of the deposited data

Results flagged for a closer look

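Of 40 groups of 4 samples checked for a value standing apart by Dixon's test, 2 had one, and chance gives about 1 in 20. H2-T23 read 114.9 CPM in NFKBIE-ko spleen replicate 3, where the other 3 samples lay between 82.9 and 85.8 CPM. B2m read 1651 CPM in NFKBIE-wt spleen replicate 3, where the others lay between 2120 and 2198 CPM.

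Of 30 differences of the genotype effect between sites, 2 passed the test. The effect of NFKBIE-ko was higher in the spleen than in the PC by 0.81 for H2-Q7 and by 0.70 for Tap2 on the log2 scale.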

How the results depend on the processing

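Called values kept their direction in every alternative: of 585 refits of 40 called values, 0 changed sign and 42 lost the call. In the spleen genotype comparison, 5 members were called by DESeq2 and with all 22 samples in the fit, and 0 to 4 with each replicate left out. In the PC 3 to 5 were called with each replicate left out. The replicate numbers did not pair the genotypes (correlations of same-numbered deviations -0.31 to 0.05 in the spleen and -0.19 to 0.042 in the PC), and with the replicate block 0 members were called in the spleen and 2 in the PC. Spleen and PC samples can share a mouse, but their numbers did not all correlate above 0.1 (-0.16 to 0.20 in NFKBIE-wt and -0.036 to 0.18 in NFKBIE-ko, where 3 of 4 did and were the best match, a hint from the data). With the block 10 and 6 members were called between PC and spleen, Tap1 in NFKBIE-ko being the lost one (adjusted p = 0.0631). NFKBIE-wt spleen against culture gave 3 calls without the 2 doubted libraries and 0 to 1 with single libraries left out, NFKBIE-wt PC against culture gave 5 to 10 in the same way, and NFKBIE-ko spleen against culture gave 2 by DESeq2 and with coding transcripts. The difference of effects between spleen and PC gave 0 calls with 1 transcript per gene and 1 to 2 with single libraries left out, and those against the cultures each gave 1 by DESeq2, 1 without the 2 libraries and 0 to 1 with single libraries left out. The cause was not tested. Of 65 refits that turned a sign 0 were called, but Tapbp in NFKBIE-wt PC against culture, from -0.049 to 0.53 over its refits, was called in 1 of them. H2-K1 in the PC turned to 0.0029 with RLE scaling, 0.0040 with DESeq2, 0.012 with all samples, 0.063 with coding transcripts, 0.088 with 1 transcript and 0.00062 with the replicate block, and ran from -0.038 to 0.036 with single libraries left out. With 1 transcript per gene H2-T22 in the PC turned to -0.0093 and H2-Q7 in the cultures to -0.042, and with the replicate block H2-T22 and Tapbp in the cultures turned to 0.066 and 0.029. With single libraries left out, the culture differences ran from -0.28 to 0.44 (H2-T22), -0.091 to 0.12 (B2m), -0.41 to 0.24 (Tap1), -0.28 to 0.27 (Tapbp), -0.39 to 0.21 (Nlrc5), -0.017 to 0.27 (H2-D1), -0.046 to 0.32 (H2-K1) and -0.011 to 0.41 (H2-T23). Over all genes, DESeq2 called 1650 in the spleen and 232 in culture, where edgeR called 642 and 4. For the differences of effects it called 1229 (spleen against PC), 812 (spleen against culture) and 1429 (PC against culture), where edgeR called 669, 54 and 657. Replicate pairs differed by more than counting error, so the spread between samples and not depth limits these comparisons.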
